A study of Canis lupus familiaris with 33 samples.

Results

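The DNA repair genes described here are 55 genes of 7 pathways: checkpoint signalling, homologous recombination, the Fanconi anaemia pathway, mismatch repair, base excision repair, nucleotide excision repair and end joining. They were taken by gene symbol, as all probesets that the platform annotation assigns to 1 symbol only, and the rule itself uses no measured value. The genes themselves were chosen with earlier results of these data known. Of the 55 genes, 52 were measured, by 95 of the 43035 probesets; PALB2, XRCC3 and BLM, all of the recombination list, had no such probeset. The array named 15115 genes in all. RNA came from lymph nodes of dogs and was hybridised to 33 Affymetrix Canine Genome 2.0 arrays. The groups were 7 samples of relapsed diffuse large B-cell lymphoma (DLBCL), a tumour of mature B cells, 16 samples of treatment naïve DLBCL, and 10 arrays of healthy nodes. Relapsed dogs had been treated with chemotherapy under protocols that varied between dogs, had gone 13 to 672 days without treatment, and were 6.4 to 11.8 years old (median 8.7). Naïve dogs had not been treated and were 2.7 to 13.3 years old (median 7.7). Healthy dogs had been euthanised for conditions other than lymphoma, and their ages are not given in the labels. DLBCL nodes were sampled by biopsy and healthy nodes came from euthanised dogs, so the way of collection and disease state cannot be told apart. The tissue was homogenised, with no sorting of cells. By their case numbers, 4 of the healthy arrays came from a single animal (healthy dog 1), and DLBCL samples 11 (naïve) and 12 (relapsed) from another. Arrays of the same dog were averaged, which left 22 DLBCL dogs and 7 healthy dogs.

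DNA is repaired by routes that divide the work by the kind of damage. Checkpoint kinases sense stalled forks and breaks and hold the cell cycle, recombination and the Fanconi pathway mend breaks and crosslinks with the sister chromatid as a template, and end joining rejoins breaks without one. Mismatch repair corrects replication errors, and the excision pathways cut out damaged bases or short damaged stretches. In the lymph node, B cells of the germinal centre divide fast while they break and mutate their own immunoglobulin genes, so several of these enzymes also serve the immune response there. Many recombination and Fanconi genes are known to be transcribed mainly in the S and G2 phases, whereas most excision and end joining genes are expressed through the whole cycle.

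Values are log2 expression levels from RMA, which sets all arrays to one distribution. The array medians lay between 6.85 and 6.97, and the means of control probesets for artificial tags reached 4.56, so that values near that level are close to background. The sets of samples differed beyond their labels. The RNA integrity number (RIN) was 9.64 ± 0.294 in DLBCL (SD, n = 22 dogs, range 8.9 to 10) and 7.11 ± 1.12 in healthy nodes (SD, n = 7 dogs, range 5.8 to 9.15; exact permutation test, two-sided p = 1.9e-06), and only healthy dog 1 lay within the DLBCL range. Fits were therefore repeated with RIN as a covariate, and those values are given beside the results. The mean level of 10 T-cell markers was 7.39 to 9.69 in DLBCL dogs and 10.11 to 10.95 in healthy dogs, where 0 markers were higher and 8 were lower in DLBCL. The mean of 6 B-cell markers was 7.97 to 11.07 in DLBCL dogs and 9.41 to 10.31 in healthy dogs. DLBCL sample 5, a naïve tumour, had the lowest B-cell mean, 7.97 against 10.13 in the next lowest tumour, which goes against its label. DLBCL sample 18, a relapsed tumour, had the lowest mean of 16 mitosis genes among the tumours, 9.26, and the highest mean of stroma markers, 12.21. In whole tissue, fewer cells of a type and less RNA per cell cannot be told apart.

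DNA repair genes were higher in DLBCL far more often than lower. Of the 52 measured genes, 31 were higher and 3 lower in the 22 DLBCL dogs than in the 7 healthy dogs (limma, Benjamini-Hochberg adjusted p under 0.05 over all probesets), and 18 were not called. Over all 15115 genes, 19.9% were called higher and 14.9% lower. The rise was over 2-fold in 13 repair genes and the fall in 0, where 1.93% of all genes were higher and 4.8% lower beyond that size. The median log2 difference of the 52 genes was 0.39, and that of all genes was 0.06. The rises lay in recombination (11 of 13 genes, median difference 0.96), the Fanconi pathway (5 of 7, median 1.25), checkpoint signalling (5 of 6, median 0.36) and mismatch repair (3 of 3, median 0.41). Base excision repair had 3 of 8 genes higher (median 0.25), end joining 3 of 7 (median 0.10) and nucleotide excision repair 1 of 8 (median 0.06). The 3 lower genes were FANCG, OGG1 and ERCC5, each from a different pathway.

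**Figure D1:**
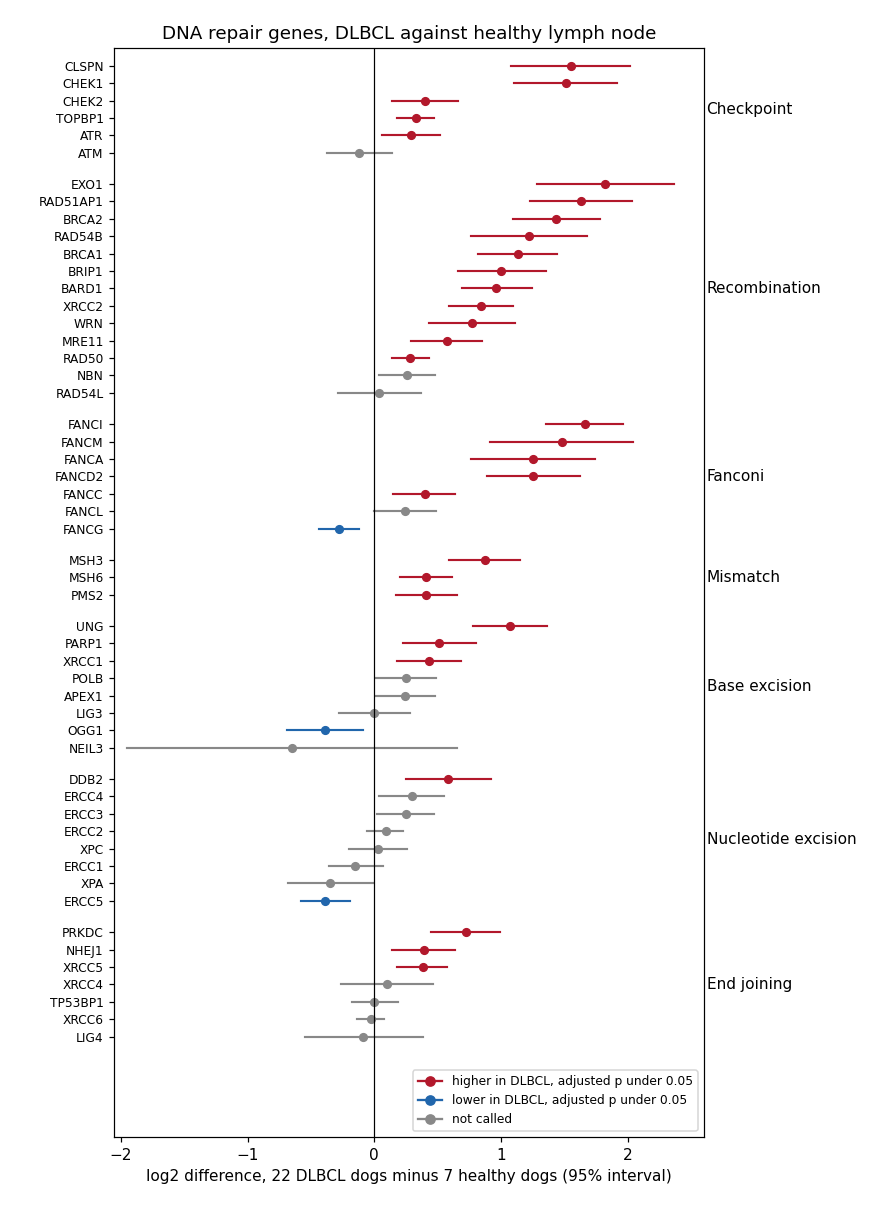
Log2 difference between 22 DLBCL dogs and 7 healthy dogs (x axis) for 52 DNA repair genes, grouped by pathway and ordered by size. Points are limma estimates with 95% intervals, coloured by the call at an adjusted p under 0.05. Recombination and Fanconi genes reach 1.82 and 1.66. Nucleotide excision genes lie between −0.39 and 0.58, and end joining genes between −0.09 and 0.72.

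With RIN as a covariate, 4 repair genes were called higher, namely BRCA2, RAD51AP1, XRCC2 and FANCI, and 0 lower, where 0.668% and 1.19% of all genes were called. The median standard error of the repair genes was then 0.28, against 0.13 without RIN, and their median difference was 0.50 against 0.39. Of the 31 higher genes, 30 kept a positive difference with RIN in the fit, and 17 had a larger one. RIN and disease state were nearly confounded in these dogs.

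Checkpoint signalling begins with the kinases ATM, which answers breaks, and ATR, which answers stalled forks, and passes to CHEK2 and CHEK1. Claspin, encoded by CLSPN, is the adaptor through which ATR activates CHEK1. CLSPN lay between 6.41 and 8.56 (median 7.66) in DLBCL dogs and between 5.36 and 7.25 (median 6.03) in healthy dogs. In 18 of 22 DLBCL dogs it was above every healthy dog. The log2 difference was 1.55 (SE 0.23, adjusted p = 7.4e-06), a 2.93-fold rise. CHEK1 levels were 7.37 to 9.27 (median 8.39) in DLBCL dogs and 6.16 to 7.34 (median 6.96) in healthy dogs. The groups did not overlap, which held for CHEK1 and FANCI among the repair genes and, upwards, for 0.549% of all genes. No repair gene lay below all healthy dogs in every tumour, as 1.18% of all genes did. CHEK1 rose by 1.51 (SE 0.20, adjusted p = 1.3e-06). The rises of the other checkpoint genes were smaller. CHEK2, the kinase downstream of ATM, lay at 12.10 to 13.40 (median 12.84) in DLBCL dogs and 11.90 to 12.89 (median 12.42) in healthy dogs, with a difference of 0.40 (SE 0.13, adjusted p = 0.016). TOPBP1, the scaffold that switches ATR on, was 12.19 to 12.92 (median 12.59) in DLBCL dogs and 12.11 to 12.52 (median 12.21) in healthy dogs, a difference of 0.33 (SE 0.07, adjusted p = 6.0e-04). Both sets of ranges overlapped, although 10 DLBCL dogs for CHEK2 and 16 for TOPBP1 exceeded all healthy dogs. The call of CHEK2 was lost without healthy dog 1 (adjusted p = 0.071). ATR rose by 0.29 (SE 0.11, adjusted p = 0.045), and this call was lost when any of 4 healthy dogs was left out. ATM differed by −0.12 (95% interval −0.37 to 0.14) and was not called. Its levels were 6.35 to 7.31 in DLBCL dogs and 6.58 to 7.16 in healthy dogs.

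Homologous recombination had the most rising genes. EXO1, a 5′ to 3′ exonuclease that resects DNA ends and also serves mismatch repair, lay between 6.53 and 9.08 (median 7.78) in DLBCL dogs and between 5.15 and 6.91 (median 6.25) in healthy dogs. Only sample 18, at 6.53, fell within the healthy range. The difference of 1.82 (SE 0.27, adjusted p = 5.8e-06), or 3.54-fold, was the largest among the 52 genes. RAD51AP1, which promotes strand pairing in recombination, was at 7.77 to 9.19 (median 8.66) in DLBCL dogs and 5.92 to 7.89 (median 6.94) in healthy dogs. Of the DLBCL dogs, 20 lay above all healthy dogs, and the difference was 1.63 (SE 0.20, adjusted p = 4.0e-07). BRCA2, a tumour suppressor required for recombination at breaks, was at 10.60 to 12.00 (median 11.41) in DLBCL dogs and 9.14 to 10.72 (median 10.00) in healthy dogs. One tumour, sample 18 at 10.60, overlapped with the highest healthy dog, and the difference was 1.43 (SE 0.17, adjusted p = 2.3e-07). With RIN in the fit, the differences of RAD51AP1 and BRCA2 were 2.00 (adjusted p = 0.013) and 1.84 (adjusted p = 0.0072). RAD54B, a DNA-dependent motor protein, was at 6.90 to 9.02 (median 8.42) in DLBCL dogs and 6.13 to 8.06 (median 7.16) in healthy dogs, with overlap in 6 tumours and a difference of 1.22 (SE 0.22, adjusted p = 1.2e-04).

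The other 7 rising recombination genes covered the BRCA1 complex, helicases and the MRN complex. BRCA1 rose by 1.13 (SE 0.15) and its ring partner BARD1 by 0.96 (SE 0.13), and in each case 1 tumour of 22 lay within the healthy range. BRIP1, the helicase that binds BRCA1, was at 4.51 to 6.14 in DLBCL dogs and 3.69 to 4.99 in healthy dogs, levels close to background, with a 2.0-fold rise (SE 0.17 on the log2 scale). XRCC2, a recombination mediator, rose by 0.84 (SE 0.12), and WRN, the helicase mutated in Werner syndrome, by 0.77 (SE 0.17). XRCC2 was at 5.71 to 6.60 in DLBCL dogs and 4.48 to 5.77 in healthy dogs, the lowest of which was close to background. Among the MRN genes, which recognise broken ends, MRE11 rose by 0.57 (SE 0.14) and RAD50 by 0.28 (SE 0.07), and NBN differed by 0.26 (SE 0.11, adjusted p = 0.068). RAD54L, the closest relative of RAD54B, differed by 0.04 (95% interval −0.29 to 0.37). Its levels were 8.37 to 9.67 in DLBCL dogs and 8.15 to 9.61 in healthy dogs, so that only 2 tumours exceeded all healthy dogs.

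The Fanconi pathway unhooks DNA crosslinks: a core complex of FANCA, FANCC, FANCG, FANCL and others adds ubiquitin to the FANCD2 and FANCI pair, and FANCM anchors the core to DNA. FANCI lay between 7.27 and 8.87 (median 7.97) in DLBCL dogs and between 6.22 and 6.65 (median 6.35) in healthy dogs. The lowest tumour was above the highest healthy dog, and the difference was 1.66 (SE 0.15, adjusted p = 2.3e-09). FANCI was also called with RIN in the fit, at 1.41 (adjusted p = 0.021). Its partner FANCD2 was at 9.81 to 11.39 (median 10.88) in DLBCL dogs and 8.96 to 10.15 (median 9.41) in healthy dogs, a difference of 1.25 (SE 0.18, adjusted p = 4.6e-06). FANCM was at 7.69 to 10.43 (median 8.92) in DLBCL dogs and 6.09 to 8.52 (median 7.65) in healthy dogs, and differed by 1.48 (SE 0.28, adjusted p = 1.4e-04). Overlap with healthy dogs was limited to 3 tumours for FANCD2 and 5 for FANCM.

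Genes of the Fanconi core complex did not move together. FANCA was at 8.26 to 10.75 (median 10.20) in DLBCL dogs and 8.41 to 9.13 (median 8.73) in healthy dogs, and rose by 1.25 (SE 0.24, adjusted p = 1.7e-04). In 20 tumours FANCA was above all healthy dogs, and in sample 18 it was below all of them. FANCC rose by 0.40 (SE 0.12, adjusted p = 0.011), and FANCL, the ubiquitin ligase, differed by 0.24 (SE 0.12, adjusted p = 0.12). FANCG, another core subunit, was at 11.28 to 12.08 (median 11.71) in DLBCL dogs and 11.56 to 12.29 (median 12.04) in healthy dogs. Although FANCG was lower by test, with a difference of −0.28 (SE 0.08, adjusted p = 0.0066), its ranges overlapped in all but 1 tumour. This fall was not called over the 33 arrays as separate samples (−0.15, adjusted p = 0.11), and with RIN in the fit the difference was 0.04 (adjusted p = 0.93).

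All 3 measured mismatch repair genes were higher in DLBCL. MSH3 takes part in recognising loops and MSH6 mispaired bases, and PMS2 is the nuclease that nicks the new strand. MSH3 was at 9.79 to 11.25 (median 10.87) in DLBCL dogs and 9.61 to 10.21 (median 9.97) in healthy dogs. Samples 5 and 18 were the lowest tumours and the 2 that lay within the healthy range, while the other 20 were above it. The difference was 0.87 (SE 0.14, adjusted p = 1.8e-05). MSH6 was at 11.37 to 12.35 (median 12.09) in DLBCL dogs and 11.43 to 11.94 (median 11.55) in healthy dogs, a difference of 0.41 (SE 0.10, adjusted p = 0.0021). PMS2 was at 10.47 to 11.64 (median 11.28) in DLBCL dogs and 10.36 to 11.07 (median 10.93) in healthy dogs, a difference of 0.41 (SE 0.12, adjusted p = 0.0085). Sample 5 had the lowest level of MSH6 and of PMS2 too, and the larger part of the tumours, 17 for MSH6 and 19 for PMS2, exceeded every healthy dog.

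**Figure D2:**
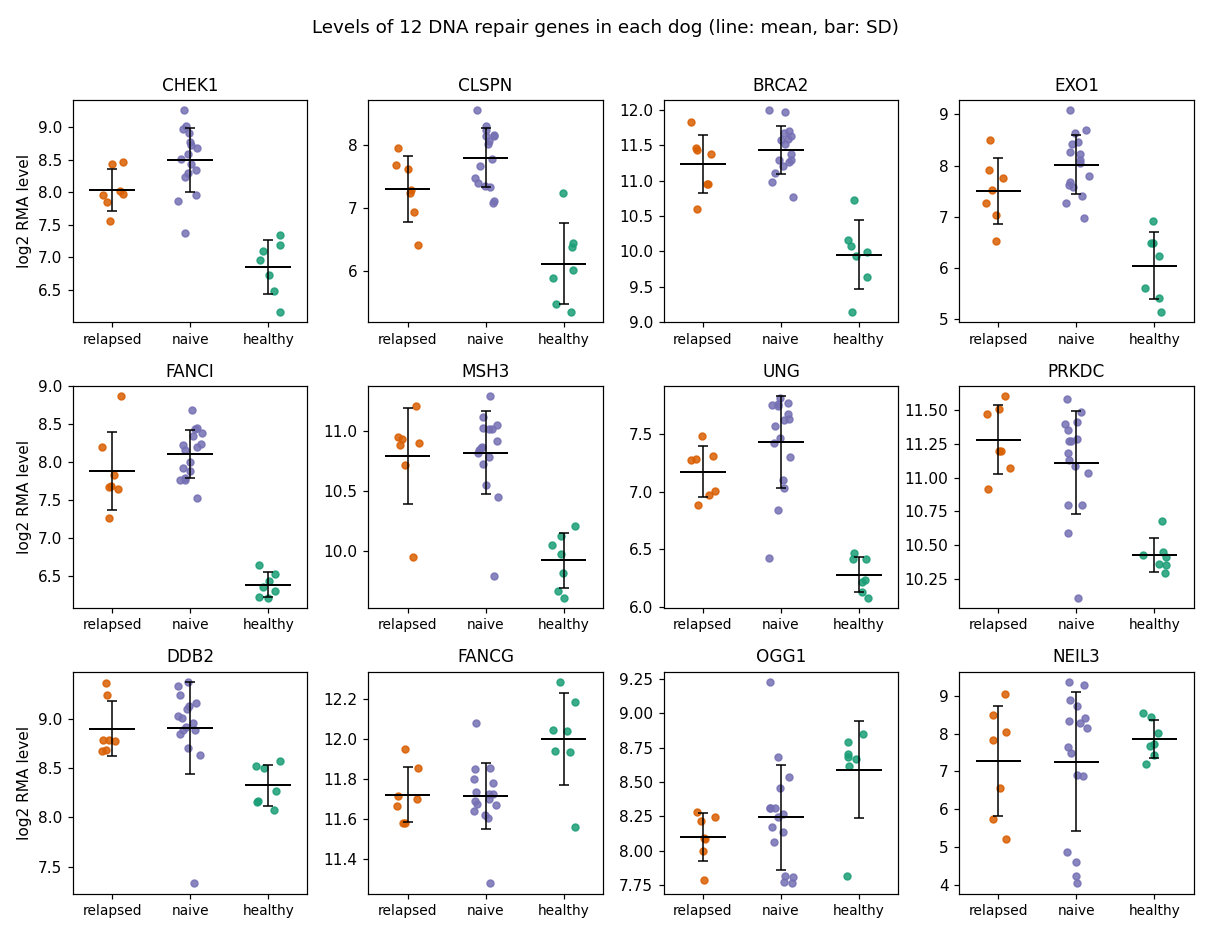
Log2 RMA levels (y axis) of 12 DNA repair genes in relapsed DLBCL (7 dogs), naïve DLBCL (16 dogs) and healthy nodes (7 dogs). Each point is 1 dog, the line is the group mean and the bar its SD. CHEK1 and FANCI separate every DLBCL sample from every healthy node, and NEIL3 spreads over 4.03 to 9.38 in naïve DLBCL.

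Base excision repair was mixed. Its glycosylases remove single bases, APEX1 cuts the strand, POLB fills the gap, and XRCC1, LIG3 and PARP1 organise and seal it. UNG, the glycosylase that removes uracil and that B cells also need for class switching, was at 6.42 to 7.82 (median 7.45) in DLBCL dogs and 6.08 to 6.47 (median 6.23) in healthy dogs. A single tumour lay within the healthy range, and the rise was 1.07 (SE 0.14, adjusted p = 1.6e-06). PARP1, which marks strand breaks with poly(ADP-ribose), was at 9.79 to 11.24 (median 10.78) in DLBCL dogs and 9.84 to 10.48 (median 10.18) in healthy dogs, with a rise of 0.51 (SE 0.14, adjusted p = 0.0054). The scaffold XRCC1 was at 10.43 to 11.97 (median 11.19) in DLBCL dogs and 10.51 to 10.97 (median 10.77) in healthy dogs, with a rise of 0.43 (SE 0.12, adjusted p = 0.0066). For both genes 17 tumours were above all healthy dogs and 1 was below them, sample 5 for PARP1 and sample 18 for XRCC1. APEX1 differed by 0.24, POLB by 0.25 and LIG3 by 0.00, and none of the 3 was called on its brightest probeset.

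OGG1, the glycosylase for oxidised guanine, was at 7.76 to 9.23 (median 8.19) in DLBCL dogs and 7.81 to 8.85 (median 8.68) in healthy dogs. The healthy range was wide because healthy dog 1, at 7.81, lay apart from the other healthy dogs, the next of which was at 8.61. The difference of −0.39 (SE 0.15) had an adjusted p of 0.039. This call was not firm: leaving out any of the other 6 healthy dogs gave adjusted p-values of 0.065 to 0.091, and leaving out healthy dog 1 gave a difference of −0.52 and an adjusted p of 0.0056. The dimmer OGG1 probeset differed by 0.02 (adjusted p = 0.91). NEIL3, a glycosylase for oxidised bases that is known to act at replication forks, varied more among tumours than any other repair gene. Its SD was 1.71 in DLBCL dogs, where the other 51 genes had SDs of 0.12 to 0.63, and 0.51 in healthy dogs. NEIL3 lay between 4.03 and 9.38 (median 7.84) in DLBCL dogs and between 7.19 and 8.55 (median 7.72) in healthy dogs. Of 22 tumours, 9 were below all healthy dogs and 4 above all of them, and the difference of −0.65 (SE 0.64, adjusted p = 0.46) was not called. In naïve tumours the 4 lowest values lay between 4.03 and 4.87, close to background, and the fifth was 6.89. The second NEIL3 probeset was dimmer, at 4.15 to 6.68 in DLBCL dogs and 4.69 to 6.16 in healthy dogs.

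Nucleotide excision repair was the pathway with the fewest calls. DDB2, the sensor of ultraviolet damage and a known target of p53, was at 7.33 to 9.37 (median 8.93) in DLBCL dogs and 8.07 to 8.57 (median 8.27) in healthy dogs. All tumours but sample 5, which at 7.33 was below every healthy dog, were above the healthy range. The rise was 0.58 (SE 0.16, adjusted p = 0.0063), and it was not called for the mean of its probesets (0.27, adjusted p = 0.094). ERCC5, the nuclease that cuts 3′ of the lesion, was at 12.25 to 13.06 (median 12.81) in DLBCL dogs and 12.98 to 13.24 (median 13.20) in healthy dogs. In 17 of 22 tumours it was below every healthy dog, and the difference was −0.39 (SE 0.09, adjusted p = 0.0020). With RIN in the fit the ERCC5 difference was −0.29 (adjusted p = 0.54). The 6 genes that were not called were the damage recognition factors XPC (0.03) and XPA (−0.35), the helicases ERCC2 (0.09) and ERCC3 (0.25), and ERCC1 (−0.15) and ERCC4 (0.30), which form the 5′ nuclease. XPA had an adjusted p of 0.10, and of 0.032 at a difference of −0.47 without healthy dog 1.

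End joining had 3 rising genes, 2 of which belong to the DNA-dependent protein kinase. PRKDC, its catalytic subunit, was at 10.11 to 11.58 (median 11.20) in DLBCL dogs and 10.29 to 10.68 (median 10.41) in healthy dogs. Sample 5 was again the lowest tumour, below all healthy dogs, and 20 tumours were above them. The rise was 0.72 (SE 0.13, adjusted p = 1.1e-04). XRCC5, the larger Ku subunit, was at 10.91 to 11.84 (median 11.48) in DLBCL dogs and 10.85 to 11.29 (median 11.07) in healthy dogs, with a rise of 0.38 (SE 0.09, adjusted p = 0.0028). NHEJ1, a ligation cofactor, was at 8.41 to 9.45 (median 8.93) in DLBCL dogs and 8.05 to 8.78 (median 8.61) in healthy dogs, with a rise of 0.39 (SE 0.12, adjusted p = 0.015). These ranges overlapped, and NHEJ1 lost its call without 1 of the healthy dogs (adjusted p = 0.061). On their brightest probesets, XRCC6, the smaller Ku subunit, differed by −0.03 (95% interval −0.14 to 0.08) and TP53BP1, which shields ends from resection, by 0.00 (−0.18 to 0.19), narrow intervals around 0. LIG4 (−0.09), the ligase, and XRCC4 (0.10), its cofactor, had wider ones, of −0.26 to 0.46 for XRCC4 and −0.55 to 0.38 for LIG4. The dimmer probesets of XRCC6 differed by −0.02 to 0.54, and the mean of its probesets was called higher (0.20, limma, adjusted p = 0.019). The dimmer TP53BP1 probeset differed by 0.23.

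Different probesets of a gene could give different values. Of the 95 repair probesets, 58 were called higher and 3 called lower, where 19% and 13.6% of all 43035 probesets were. Of 28 repair genes with several probesets, 0 had one probeset called higher and another called lower. With 3 lower calls in all, few genes could have shown such a conflict, and it was not counted over all genes. Among 25 genes with at least 2 probesets above the 25th percentile of mean level, the dimmest one gave a more positive difference than the brightest in 21, or 84%, with a median gap of 0.25. Where the brightest one was negative, as for FANCG (−0.28, dimmest −0.14) and XPA (−0.35, dimmest −0.19), the more positive value was the smaller one in size. Over all genes this was so in 73.1% of 6666 genes, with a median gap of 0.17. APEX1, ERCC3, LIG3, NBN and XPC, not called on the brightest probeset, were called higher on the dimmest one, at 0.64, 0.70, 0.61, 0.51 and 0.58. Among the genes that ran the other way, PRKDC differed by −0.29 on its dimmest probeset against 0.72 on its brightest, and DDB2 by −0.03 against 0.58. Whether probe position or RNA integrity had a part in these gaps was not tested.

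**Figure D3:**
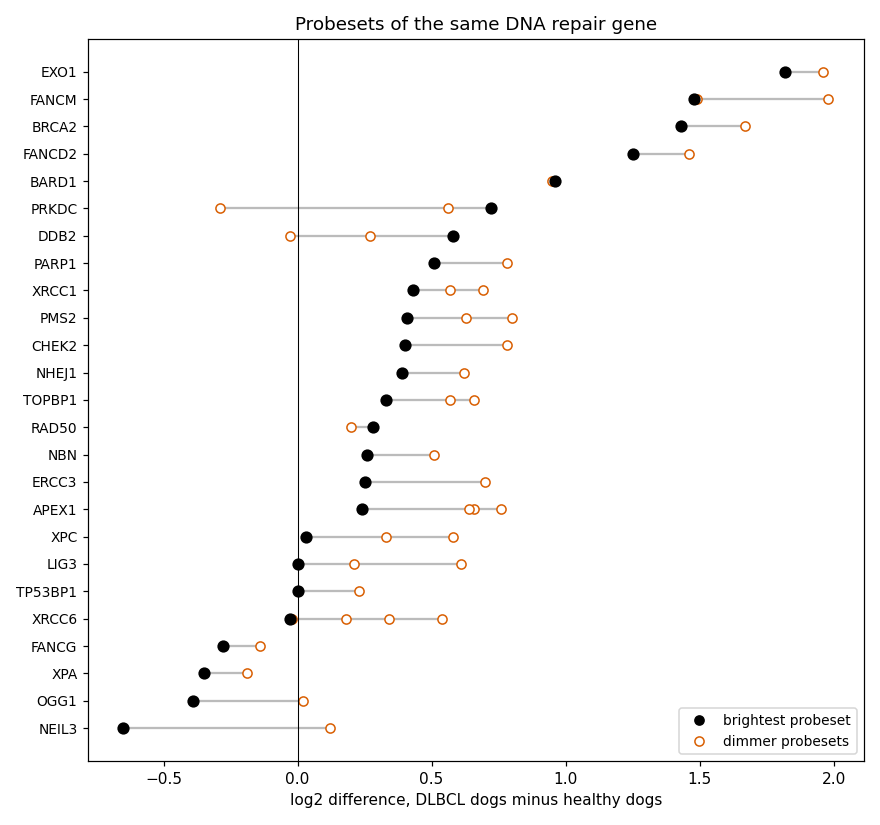
Log2 difference between DLBCL and healthy dogs (x axis) for every probeset of the 25 repair genes with at least 2 probesets above the 25th percentile of mean level. Filled points are the brightest probeset, open points the dimmer ones; in 21 of 25 genes the dimmest probeset lies to the right of the brightest.

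Other repair genes of the same pathways, taken from a list of 96 genes that were not members, were also more often higher than lower. Like the members, this list was chosen with earlier results of these data known, so it is not an independent set. Of these, 79 were measured, 38 were higher and 6 lower in DLBCL, against 19.9% higher and 14.9% lower over all genes, and the median difference was 0.31. Recombination again had the most, with 13 of 21 genes higher and 3 lower, and DNA2, the nuclease that resects ends beside EXO1, rose by 2.07 (SE 0.23, adjusted p = 8.6e-08), with all 22 tumours above all healthy dogs. Checkpoint genes were higher in 7 of 13 and lower in 1, led by CDC25C, a phosphatase that starts mitosis (1.08). In the Fanconi pathway 3 of 7 were higher and 1 lower, led by UBE2T, the ubiquitin donor for FANCD2 (1.38). Base excision genes were higher in 5 of 13, led by the flap nuclease FEN1 (0.97), nucleotide excision genes in 6 of 15, led by the TFIIH subunit GTF2H3 (0.83), and end joining genes in 3 of 6, where DCLRE1C, the Artemis nuclease, had the largest called difference (0.56). DNTT, the polymerase that adds bases at immune receptor joins, differed by 0.86 (SE 0.66, adjusted p = 0.33) and was not called. Among 4 mismatch genes, PMS1 rose by 0.77 and MSH5, known for its part in meiosis, fell by 0.50.

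Each DLBCL group was set against the same healthy dogs. In relapsed DLBCL, 26 of 52 repair genes were higher and 2 lower than in healthy nodes, where 10.8% and 8.96% of all genes were called. In naïve DLBCL, 31 were higher and 2 lower, where 19.9% and 15.1% of all genes were called. The lower genes were FANCG and ERCC5 in both. Rises over 2-fold were found for 9 genes in relapsed DLBCL (1.73% of all genes, with 3.33% lower) and 13 in naïve DLBCL (2.08% of all genes, with 5.41% lower). With RIN in the fit, 2 genes were higher in relapsed DLBCL, BRCA2 and RAD51AP1, where 0.172% of all genes were higher and 0.556% lower, and 10 in naïve DLBCL, where 1.26% were higher and 1.57% lower, with 0 repair genes lower in either. In checkpoint genes the differences from healthy nodes were 1.19 in relapsed and 1.65 in naïve DLBCL for CHEK1, and 1.19 in relapsed and 1.69 in naïve DLBCL for CLSPN. EXO1 differed by 1.46 in relapsed and 1.97 in naïve DLBCL, and FANCI by 1.49 in relapsed and 1.72 in naïve DLBCL. PRKDC ran in the other order on its brightest probeset, with 0.86 in relapsed and 0.69 in naïve DLBCL. For the mean of its probesets, PRKDC was called higher in naïve but not in relapsed DLBCL.

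Relapsed and naïve DLBCL were then compared with each other. Of the 52 repair genes 0 were called in either direction by limma, as were 0% of all genes, and 5 were lower in relapsed DLBCL at an unadjusted p under 0.05, as were 2.69% of all genes. The smallest adjusted p of a repair gene was 0.88. Differences of relapsed minus naïve DLBCL lay between −0.51 and 0.25, with a median of −0.12, and 18 of 52 were above 0. Over all genes the median was −0.01, and 6762 of 15115 were above 0. EXO1 was at 6.53 to 8.49 (median 7.52) in relapsed and 6.98 to 9.08 (median 8.08) in naïve DLBCL, a difference of −0.51 (95% interval −1.06 to 0.03, adjusted p = 0.90). CLSPN was at 6.41 to 7.96 (median 7.29) in relapsed and 7.09 to 8.56 (median 7.90) in naïve DLBCL, a difference of −0.50 (−0.96 to −0.04, adjusted p = 0.89). CHEK1 was at 7.56 to 8.47 (median 7.98) in relapsed and 7.37 to 9.27 (median 8.55) in naïve DLBCL, a difference of −0.46 (−0.85 to −0.06, adjusted p = 0.89). The groups overlapped widely in each of these genes. For 50 of 52 genes the 95% interval stayed within 1 log2 unit of 0 on both sides, so that a 2-fold difference lay outside it. The mitosis mean was 9.26 to 11.25 (median 10.33) in relapsed and 9.90 to 11.19 (median 10.55) in naïve DLBCL, and the stroma mean was 11 to 12.21 in relapsed and 9.23 to 11.66 in naïve DLBCL; the part of either in these differences was not tested.

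The dog with a sample in both groups showed lower levels at relapse for most repair genes. Of 52 genes, 40 were lower and 11 higher in the relapsed sample 12 than in the naïve sample 11, with a median difference of −0.20 and a range of −1.14 to 0.20. XRCC2 was at 5.62 in the relapsed and 6.76 in the naïve sample, FANCM at 8.06 in the relapsed and 9.07 in the naïve sample, and EXO1 at 7.26 in the relapsed and 8.11 in the naïve sample. The same 2 samples had mitosis means of 9.85 at relapse and 10.61 before treatment, T-cell means of 9.37 at relapse and 8.64 before treatment, and stroma means of 11.23 at relapse and 10.22 before treatment. As this is 1 dog, the values carry no test. The same count was not made over all genes, so a general difference between the 2 samples cannot be told apart from one of the repair genes.

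Repair genes differed in how they varied from tumour to tumour. Each gene was fitted against the mean level of 16 mitosis genes, such as CDK1 and PLK1, across the 22 DLBCL dogs, and the slope is in log2 units of the gene per log2 unit of that mean. Of the 52 repair genes, 11 rose with the mitosis genes (limma, adjusted p under 0.05) and 0 fell, where 3.49% of all genes rose and 0.701% fell. The 11 were CLSPN, the recombination genes BRCA1, BRCA2, RAD51AP1, RAD54L, RAD54B and EXO1, and the Fanconi genes FANCA, FANCD2, FANCI and FANCM, with slopes of 0.48 to 1.05. FANCM (1.05, SE 0.11) and EXO1 (1.01, SE 0.13) changed by about as much as the mitosis genes themselves, while BRCA2 (0.48, SE 0.11) changed by less. No gene of mismatch, base excision, nucleotide excision or end joining repair was called in either direction. These lists held 3, 8, 8 and 7 genes, among which few calls would fall at the shares of all genes. The absence of calls is therefore not read as a difference between pathways. RAD54L rose with the mitosis genes at a slope of 0.49 (SE 0.10) without a called difference from healthy nodes. Sample 18, the tumour of lowest mitosis mean, carried part of this. Without it 5 genes were called, namely RAD51AP1, RAD54L, EXO1, FANCD2 and FANCM, where 1.84% of all genes rose. Among the 16 naïve samples alone 3 were called, RAD54L, EXO1 and FANCM, where 0.529% of all genes rose.

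**Figure D4:**
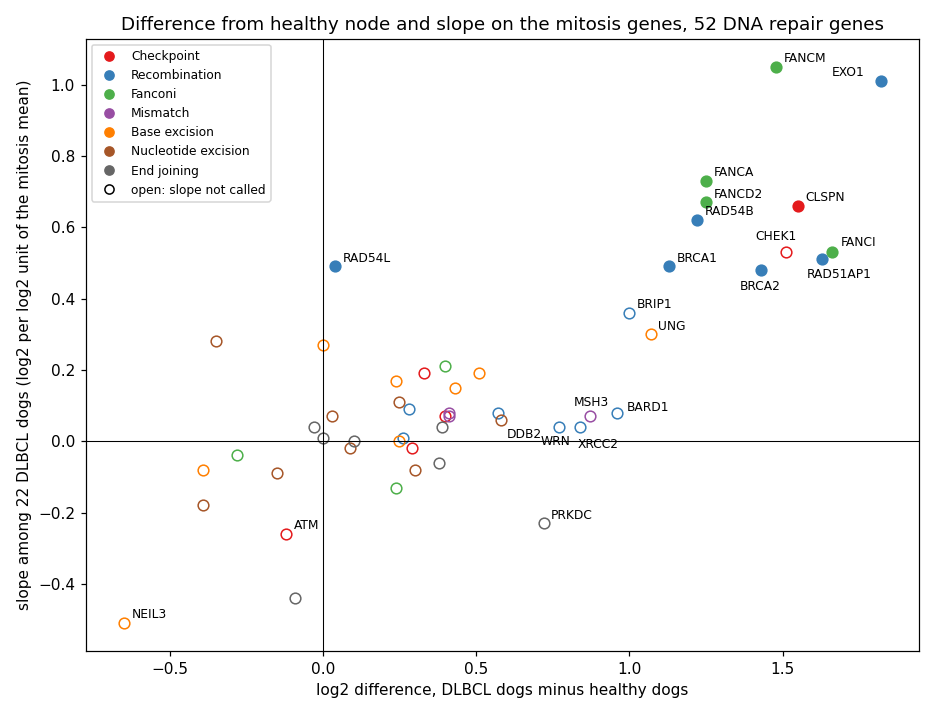
Log2 difference between DLBCL and healthy dogs (x axis) against the slope on the mitosis mean among 22 DLBCL dogs (y axis, log2 per log2 unit) for 52 repair genes, coloured by pathway. Filled points have a called slope. FANCM and EXO1 lie at slopes of 1.05 and 1.01, while XRCC2, WRN, BARD1, MSH3 and PRKDC differ from healthy nodes with slopes between −0.23 and 0.08.

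Other rising genes had no called slope on the mitosis genes. Of the 31 genes higher in DLBCL, 10 had a called slope and 21 did not, and 13 of these 21 had a slope within 0.1 of 0. The slopes were 0.04 (SE 0.10) for XRCC2, 0.04 (SE 0.17) for WRN, 0.08 (SE 0.13) for BARD1, 0.07 (SE 0.14) for MSH3 and −0.23 (SE 0.13, adjusted p = 0.41) for PRKDC. A missing call does not show that a gene lacks a slope: CHEK1, at 0.53 (SE 0.16, adjusted p = 0.065), and TOPBP1, at 0.19 (SE 0.06, adjusted p = 0.052), fell just short of a call. The mitosis mean itself was 9.26 to 11.25 in DLBCL dogs and 7.92 to 10.11 in healthy dogs, and 15 of the 16 mitosis genes were called higher in DLBCL. A fit with this mean as a covariate therefore cannot fully separate it from disease state, and the median standard error of the repair genes was 0.18, against 0.13 without it. In that fit of DLBCL against healthy dogs, 10 repair genes were called higher, where 2.97% of all genes were. They were CHEK1, BRCA1, BRCA2, BARD1, RAD51AP1, XRCC2, FANCI, MSH3, UNG and PRKDC. Among them, FANCI differed by 1.06 (adjusted p = 1.2e-04), PRKDC by 0.95 (adjusted p = 0.0023), BARD1 by 0.86 (adjusted p = 0.0083) and MSH3 by 0.85 (adjusted p = 0.010). EXO1 differed by 0.44 (adjusted p = 0.15) and FANCM by −0.01 (adjusted p = 0.98) in that fit. RAD54L (−0.60, adjusted p = 0.041) and XPA (−0.75, adjusted p = 0.040) were called lower, where 4.44% of all genes were.

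**Figure D5:**
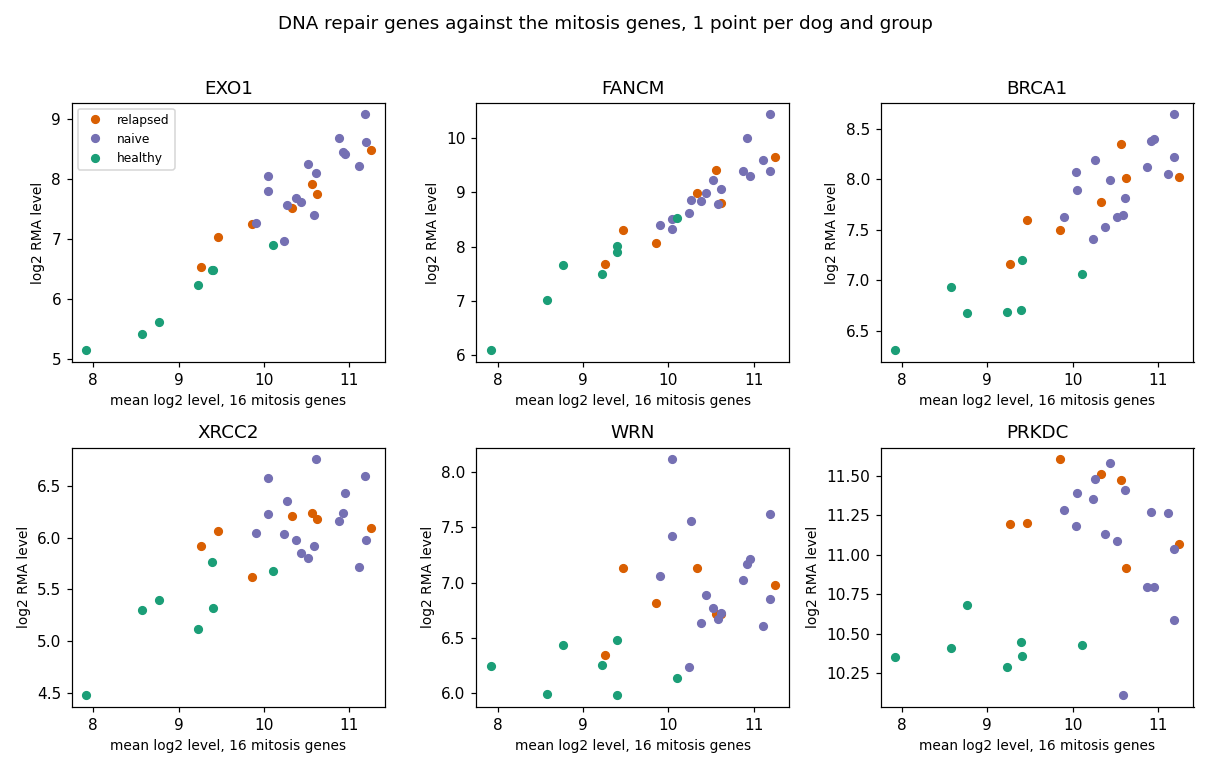
Log2 RMA level of 6 repair genes (y axes) against the mean log2 level of 16 mitosis genes (x axes) in relapsed DLBCL, naïve DLBCL and healthy dogs, 1 point per dog and group. EXO1, FANCM and BRCA1 climb with the mitosis mean, with slopes of 1.01, 1.05 and 0.49 among DLBCL dogs, and XRCC2, WRN and PRKDC have slopes of 0.04, 0.04 and −0.23 without a call.

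Tumours 5 and 18 were the extremes of the repair genes. Each had the lowest level of 12 of the 52 genes among the 23 DLBCL samples, a count that was not made over all genes. Those of sample 18 were mainly recombination and Fanconi genes, with CLSPN at 6.41, EXO1 at 6.53, RAD54B at 6.90 and FANCA at 8.26. Those of sample 5, whose B-cell markers were low, included the mismatch genes MSH3 at 9.79 and MSH6 at 11.37, the nucleotide excision gene DDB2 at 7.33 and the end joining gene PRKDC at 10.11. Without these 2 samples 33 repair genes were higher and 3 lower in DLBCL, where the shares of all genes also grew, to 22.6% higher and 17.2% lower, with ERCC3 (0.29, adjusted p = 0.013) and NBN (0.28, adjusted p = 0.045) added to the 31. The highest levels were shared by samples 20 and 21, with 8 genes each; sample 20 had a mitosis mean of 10.05 and sample 21 one of 11.19.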

How the data were processed

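RNA was measured on 33 Affymetrix Canine Genome 2.0 arrays. The authors deposited log2 values, 1 per probeset and array, which they had made from the intensities with RMA (Affymetrix Expression Console); they also used Partek 6.5. Since RMA gives every array one distribution, a shift of all genes together would be lost. Per the methods, RNA was extracted in 2 balanced random batches; their members were not assigned to samples here, and no batch was tested. Values ranged from 2.2 to 15.49, and the number of arrays limits the precision.

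Groups came from the sample labels. Arrays of 1 dog were averaged (22 DLBCL and 7 healthy dogs); the 3-group fit kept samples 11 and 12 apart (30 units). Gene symbols came from the platform annotation: 29264 probesets had 1 symbol, 439 several and 13332 none, and symbols may be old. For each gene the probeset with the highest mean stood for it. Fits used limma 3.58.1 in R 4.3.3 with Benjamini-Hochberg adjustment over all probesets. Nodes had been snap frozen, per the methods. p-values measure the spread between dogs, except that the 3-group fit treated samples 11 and 12 of 1 dog as independent.

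The members and lists were chosen with earlier results of these data known. In each pathway the text gives in full up to 4 called genes with the largest differences and any called gene that runs against its pathway, and of other repair genes the 1 with the largest called difference in each list, with further genes by value. Fits were tested on simulated data. Alternatives were separate arrays, the dog as a random block, a replicate block, ANOVA, RIN or the mitosis mean as covariates, a filter at the 25th percentile, other normalizations, the mean of probesets, and leaving out samples. Plots were drawn with matplotlib 3.10.9 in Python 3.11.15. No sequences were used here.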

Additional observations from a re-analysis of the deposited data

Results flagged for a closer look

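Of 104 groups tested, the 7 relapsed samples and the 7 healthy dogs for each of 52 repair genes, 7 held a dog that lay far from the rest by Dixon's gap test; chance alone flags about 1 group in 20, so this number is near what chance gives. In relapsed DLBCL, sample 18 was low for MSH3 (9.96, the nearest other sample at 10.72) and for PARP1 (10.09, nearest 10.65). Sample 12 was low for XRCC4, the cofactor of LIG4, at 5.74 against 7.02 in the nearest sample. Among healthy dogs, healthy dog 1 was low for OGG1 (7.81, nearest 8.61), for POLB (9.86, nearest 10.42) and for TP53BP1 (11, nearest 11.38). This dog is the average of 4 arrays and had the highest healthy RIN, 9.15 against 7.7 in the next, whose part was not tested. The healthy dog with array number 6 was high for PRKDC (10.68, nearest 10.45).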

How the results depend on the processing

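The precision rests on 22 and 7 dogs. BRIP1 lay near background in healthy nodes, as did XRCC2 in the lowest healthy dog. Of 986 gene values under alternatives of the DLBCL comparison, 862 kept their call, 78 lost a call, 37 gained one and 9 turned. This was not counted over all genes. A turn was counted only where the gene was called in the main fit or in the alternative. Uncalled genes that changed sign, such as ATM with RIN (0.17), are among the 862. Where no cause is named, the cause was not tested. The 31 higher and 3 lower genes became 4 and 0 with RIN, where 0.668% and 1.19% of all genes were called. With the mitosis mean they became 10 higher and 2 lower (RAD54L and XPA), where 2.97% and 4.44% of all genes were called. Lower genes numbered 1 over 33 separate arrays and by ANOVA, and 1 on the dimmest probeset, a setting chosen after seeing the data. The shares of all genes lower were 18.9% over separate arrays, 18.7% by ANOVA and 11.2% on the dimmest probeset. With the sample number as a replicate block over 33 arrays 36 were higher and 0 lower; deviations of 9 same-numbered pairs correlated at −0.14 to 0.13, so numbers mark no pairing, and the block is given only as a count. Leaving out 1 healthy dog gave 29 to 34 higher and 2 to 4 lower, where 17% to 19.1% and 13.1% to 14% of all genes were. For relapsed DLBCL the 26 and 2 became 2 and 0 with RIN, where 0.172% and 0.556% of all genes were called. There was 1 lower for the mean of probesets, 1 without samples 5 and 18, and 0 without samples 11 and 12. The shares of all genes lower were then 7.66%, 11.5% and 7.99%. Without 1 healthy dog, 21 to 26 were higher and 0 to 4 lower, where 8.64% to 9.67% and 7.42% to 8.28% of all genes were. For naïve DLBCL the 31 and 2 became 10 and 0 with RIN, where 1.26% and 1.57% of all genes were called. For the mean of probesets 1 was lower, where 12.9% of all genes were. Without 1 healthy dog, 29 to 32 were higher and 2 to 3 lower, where 17.2% to 19.2% and 13.4% to 14.3% of all genes were. Relapsed against naïve DLBCL stayed at 0 in all settings run, as did the share of all genes. The 11 slopes became 7 with RIN, 5 with TOP2A for the list and 3 in naïve samples. Of all genes, 2.55%, 2.41% and 0.529% rose in these settings. The count was 5 without sample 18 (chosen after seeing the data), where 1.84% of all genes rose. Without samples 5 and 18 it was 8, where 2.35% of all genes rose, and 1 gene, ATM, fell, as did 0.82% of all genes. Among genes called in the main fit or the alternative, differences turned with RIN for FANCG (0.04), OGG1 (0.20) and NHEJ1 (−0.04). With the mitosis mean they turned for RAD54L (−0.60) and FANCM (−0.01). For the mean of probesets XRCC6 turned (0.20, called higher). On the dimmest probeset differences turned for OGG1 (0.02), DDB2 (−0.03) and PRKDC (−0.29).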
